A study of Homo sapiens with 18 samples.

Results

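This report describes how transcript levels differed between Hec-1A cells given PDGF-AA together with the antibody 3G3 and Hec-1A cells given a control IgG. Hec-1A is an established human cell line from an endometrial adenocarcinoma. The arrays were chosen by their labels alone, 3 arrays of PDGF-AA + 3G3 and 3 arrays of control IgG, which are 6 of the 18 arrays of the series, and no measured value entered the choice. The remaining arrays are Hec-1A cells given PDGF-AA without 3G3 and the same 3 treatments in RL95-2, a second line from a carcinoma of the endometrium, with 3 arrays per group. Both groups compared received an antibody, and no label names PDGF-AA with control IgG. The comparison therefore holds the ligand and 3G3 together against a control antibody, and their separate shares cannot be told apart in it. The treatment label of all PDGF-AA + 3G3 arrays carries the same ending "-1", while their titles number them 1 to 3. The labels give neither the dose nor the duration of treatment. They do not state that replicates came from different cultures, so p-values measure only the spread between these samples, which may be technical. Expression was read from total RNA as biotin-labelled cRNA on bead arrays that carry 47231 probes, and 32070 probes (67.9%) lay above the array median on enough arrays to be tested.

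PDGF-AA is a dimer of the platelet-derived growth factor A chain and binds the receptor PDGFRA, a receptor tyrosine kinase. Ligand binding pairs receptor molecules, which phosphorylate each other and recruit enzymes of the RAS-ERK, PI3K-AKT and phospholipase C pathways. The antibody 3G3 binds human PDGFRA and keeps ligand from activating it. In the uterus, PDGFRA is best known from stromal cells, while PDGF ligands are often made by epithelial and tumour cells. Blocking it in uterine cancer is the subject that the series title names.

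Control IgG replicate 1 stood apart from the other Hec-1A arrays before any group was compared. It correlated with them at r between 0.945 and 0.976 across all probes, whereas the 8 others correlated with each other at 0.987 or above. On that array 829 probes lay at least 2-fold from the mean of the other control arrays, against 0 to 53 probes for any other array and its own group. Its 75th percentile of signal, 185.9, was the highest of the 9 Hec-1A arrays, whose lowest was 122.7. Fold changes and list counts are therefore given with this array (3 arrays against 3) and without it (3 against 2), unless a single fit is named. Of paired fold changes of a gene in Hec-1A the second is without it. Markers fitted the labelled cell type: 10 of 10 epithelial markers lay above the array median on all 6 arrays. Of 11 fibroblast and smooth muscle markers, 2 did so and 5 were above it on no array. Of 12 leukocyte and endothelial markers, 2 did so, the lysosomal protein gene CD68 and the lysozyme gene LYZ, and 4 were above it on no array. Summed linear signals of the leukocyte and endothelial markers were 1480 to 1545 with PDGF-AA + 3G3 and 1289 to 1430 with control IgG, where the lowest was control replicate 1. The fibroblast sums were 1234 to 1259 against 1178 to 1239, and the epithelial sums were 18312 to 20933 against 18376 to 22349. The part of these markers in the results was not tested.

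Stretches upstream of 5 genes are shown, from lists and genes with the larger differences below. Only members with a motif match were eligible, in order of p without control replicate 1, so a match in each was fixed in advance. They are read 5′ to 3′ on the gene's strand from the 250 bases before the RefSeq start (GRCh38.p14), and capitals mark each motif match on either strand. For respiratory complex I the motif is the palindromic element of nuclear respiratory factor 1. The capitals in the first pair are matches to it, upstream of NDUFA11 (chr19:5903849-5903918, minus strand) and NDUFA3 (chr19:54102655-54102821, plus strand).
NDUFA11: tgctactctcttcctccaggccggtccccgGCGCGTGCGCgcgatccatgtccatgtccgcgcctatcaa
NDUFA3: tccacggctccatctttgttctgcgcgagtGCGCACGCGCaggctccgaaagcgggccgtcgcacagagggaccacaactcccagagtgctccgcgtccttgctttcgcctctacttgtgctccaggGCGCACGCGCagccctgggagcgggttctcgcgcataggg
The motif was present in 5 of 31 complex I promoters found in the table (16.1%), in 4 of 23 promoters of SR and hnRNP splicing factors (17.4%), whose fold changes lay the other way, and in 5.53% of 27305 promoters in all. NDUFB7, NDUFA2, NDUFA7 and NDUFC1 had smaller p-values than NDUFA3 without control replicate 1 and were not among the 5.

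For the histone genes the motif is the CCAAT box, CCAAT, known upstream of replication-dependent histone genes. It is marked upstream of H2AC18 (chr1:149842784-149842877, minus strand) and H2AC20 (chr1:149886725-149886882, plus strand), where ATTGG is the same box on the other strand.
H2AC18: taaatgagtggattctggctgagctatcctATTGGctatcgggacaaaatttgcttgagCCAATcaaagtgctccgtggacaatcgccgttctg
H2AC20: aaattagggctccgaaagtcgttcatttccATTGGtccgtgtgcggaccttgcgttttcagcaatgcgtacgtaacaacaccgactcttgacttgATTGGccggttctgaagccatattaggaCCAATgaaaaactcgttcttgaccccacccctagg
It was present in 13 of 17 histone promoters (76.5%) and in 15 of 18 promoters of cholesterol synthesis genes (83.3%). Fold changes of the cholesterol list were split between directions with control replicate 1. The box was in 33% of all promoters and in 4 of 11 promoters of fatty acid synthesis genes (36.4%). The sterol regulatory element TCACNCCAC was in 0 of those 11 and in 0.875% of all. For the metallothionein gene MT2A the capitals mark the metal response element core, TGCACNC or TGCGCNC, in chr16:56608334-56608583 on the plus strand.
MT2A: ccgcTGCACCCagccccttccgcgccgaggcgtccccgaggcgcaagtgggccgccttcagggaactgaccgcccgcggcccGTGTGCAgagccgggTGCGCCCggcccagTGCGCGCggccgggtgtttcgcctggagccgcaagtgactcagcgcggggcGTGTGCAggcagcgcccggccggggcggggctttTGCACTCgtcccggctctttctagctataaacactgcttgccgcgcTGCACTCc
This short core was present in 24.7% of all promoters. It was also in 18 of 31 complex I promoters (58.1%), 7 of 17 of histone genes (41.2%) and 9 of 23 of SR and hnRNP factors (39.1%). A match says only that these letters occur in the window.

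One gene passed the test when all 6 arrays were used: PLCB4, a phospholipase C that cleaves a membrane phosphoinositide downstream of G protein-coupled receptors, fell in the PDGF-AA + 3G3 group. Its normalized log2 signal was 7.97, 7.95 and 7.97 on the PDGF-AA + 3G3 arrays and 8.72, 8.40 and 8.48 on the control IgG arrays. The groups did not overlap, and the treated arrays, at 7.96 ± 0.00961, were far tighter than the controls, at 8.53 ± 0.166 (SD, n = 3 each). The log2 fold change was -0.57 ± 0.07 (SE), with an adjusted p of 0.0372 from limma's moderated test over 32070 probes. Without control replicate 1 it was -0.47 ± 0.07, the adjusted p was 0.0761 and the call was lost. Over the other settings with that array, its adjusted p ran between 0.000548 and 0.431, always with a negative fold change. A second PLCB4 probe, dimmer, had 7.11, 7.37 and 7.42 on the PDGF-AA + 3G3 arrays, against 7.70, 7.55 and 7.47 on the controls. It also showed no overlap, with a fold change of -0.27 ± 0.08 (adjusted p = 0.0837), or -0.21 ± 0.08 without control replicate 1 (adjusted p = 0.369). In bulk RNA, fewer cells of a kind and less RNA per cell cannot be told apart.

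Across all probes, 1 of 32070 was called with control replicate 1 (0.00312%, or 0.00651% of 15360 genes taken by their brightest probe), and 0 were called without it, with a smallest adjusted p of 0.0761. At an unadjusted p under 0.05 the counts were 6565 with the array, 3234 higher (10.1%) and 3331 lower (10.4%), and 3359 without it, 1750 higher (5.46%) and 1609 lower (5.02%). PDGF-AA + 3G3 arrays lay wholly above the controls at 3298 probes (10.3%) and wholly below at 3239 (10.1%), and without control replicate 1 at 4236 (13.2%) and 4344 (13.5%). With it, 42 probes differed by at least 2-fold between the group means, and without it 0 did. The median probe had a 95% interval of 0.162 on either side of its log2 fold change, and of 0.173 without control replicate 1. No other gene named below passed the test in either fit, so "above" and "below" describe its measured values only.

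**Figure D1:**
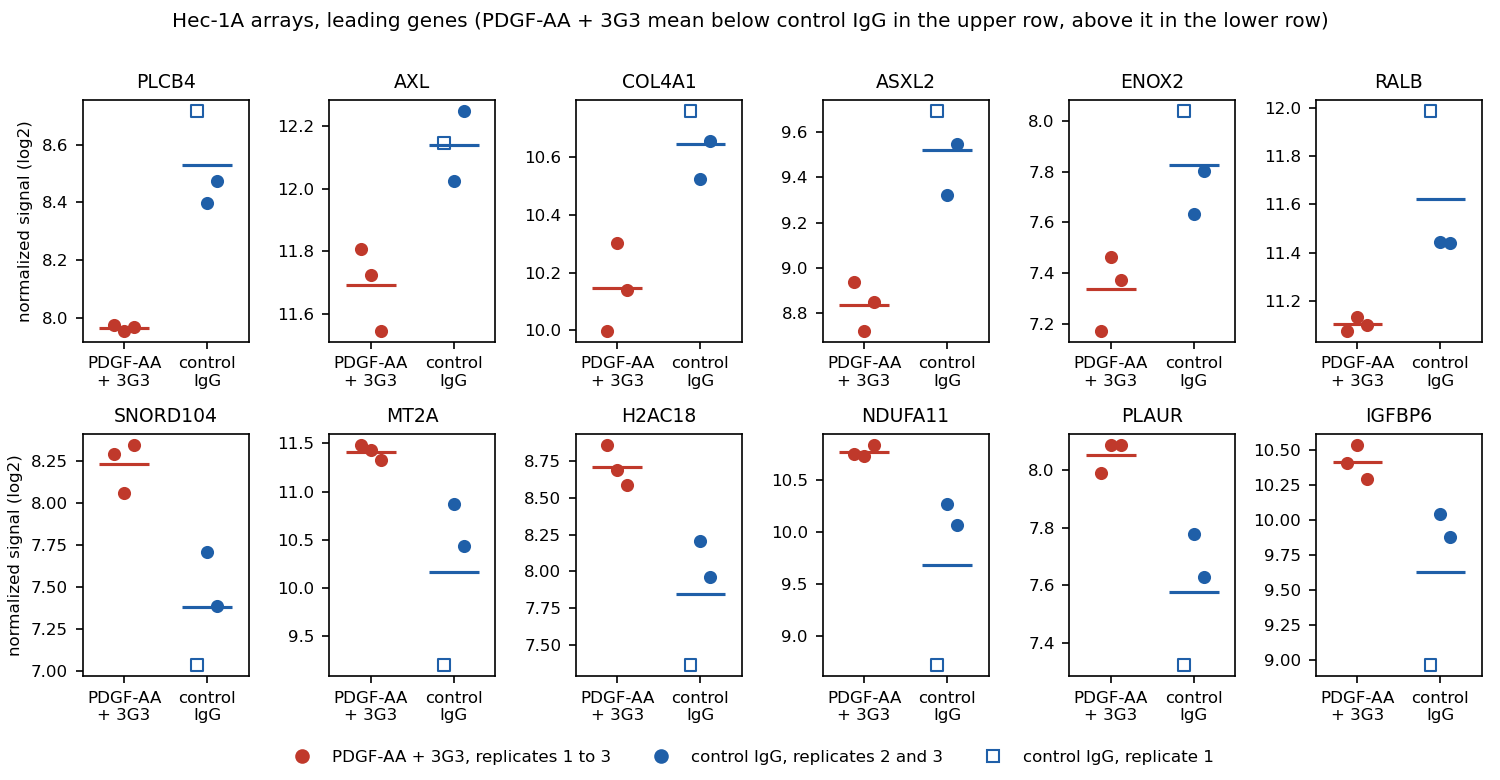
Normalized log2 signal of 12 leading genes on the PDGF-AA + 3G3 arrays (red) and the control IgG arrays (blue, with replicate 1 as an open square). Bars are group means over 3 arrays. In all 12 panels the groups do not overlap, and control replicate 1 is the control farthest from the treated arrays in every panel except that of AXL. Leading genes were chosen by small p-values, which favours such a gap.

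The genes below the controls with the smallest p-values were 10 in number, PLCB4 included. AXL, a receptor tyrosine kinase for GAS6, had 11.81, 11.72 and 11.54 with PDGF-AA + 3G3 and 12.15, 12.02 and 12.25 with control IgG. All treated values lay below all controls, and the fold change of this probe was -0.45 ± 0.07 with the doubted array and -0.44 ± 0.08 without it (adjusted p = 0.0618 and 0.1). A second AXL probe moved more, with -0.64 and -0.46. AFAP1L1, an actin filament-associated protein, had 8.47, 8.35 and 8.45 against 8.82, 8.81 and 8.84, and its fold change was -0.40 in both fits. COL4A1, a collagen IV chain of basement membranes, had 9.998, 10.304 and 10.141 against 10.761, 10.524 and 10.658, a fold change of -0.50 ± 0.09 and -0.44 ± 0.10 without control replicate 1. ASXL2, a Polycomb-associated chromatin regulator, had the largest difference in means of the 10, at 8.94, 8.72 and 8.85 against 9.69, 9.32 and 9.55. Its fold change was -0.68 ± 0.12 with control replicate 1 and -0.60 ± 0.13 without it.

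For the Ras-family GTPase RALB the doubted array weighed more. RALB had 11.07, 11.13 and 11.10 with PDGF-AA + 3G3 against 11.99, 11.44 and 11.44 with control IgG, a fold change of -0.52 ± 0.11, or -0.34 ± 0.07 without that array. The cell-surface NADH oxidase ENOX2 (-0.49 and -0.38), the ubiquitin ligase subunit FBXO38 (-0.45 and -0.41), the phosphatase-like PRUNE1 (-0.37 and -0.32) and the RNA-binding HNRNPDL (-0.32 and -0.37) complete the set. In all 10 the groups did not overlap in either fit, where 12.2% and 15.3% of all genes lay wholly below. The choice by small p-values on these arrays favours such a gap. Control replicate 1 was the highest control in 6 of the 10.

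The genes above the controls by the same rule were 13. MT2A, a metallothionein that binds zinc and copper, had 11.48, 11.44 and 11.32 with PDGF-AA + 3G3 and 9.20, 10.87 and 10.43 with control IgG. No treated array fell among the controls, and control replicate 1 lay far below the other controls. The fold change was 1.25 ± 0.27 with that array (adjusted p = 0.0622) and 0.76 ± 0.14 without it (adjusted p = 0.1). SNORD104, a small nucleolar RNA, had 8.29, 8.06 and 8.34 against 7.04, 7.71 and 7.39, a fold change of 0.85 ± 0.13 and 0.68 ± 0.11 without control replicate 1 (adjusted p = 0.0618 and 0.0934). The labels do not say what the probe reads beside the mature small RNA.

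PLAUR, the urokinase receptor that gathers protease activity at the cell surface, had 7.99, 8.09 and 8.09 with PDGF-AA + 3G3 against 7.32, 7.78 and 7.63 with control IgG (0.48 ± 0.08, and 0.35 ± 0.06 without control replicate 1), and with that array its dimmer probes differed by 0.38 and 0.13. IGFBP6, a secreted protein that binds insulin-like growth factor II, had 10.41, 10.53 and 10.29 against 8.96, 10.04 and 9.87. Its fold change of 0.78 ± 0.18 dropped to 0.45 ± 0.08 without that array. The telomerase RNA TERC had 7.42, 7.46 and 7.18 against 6.55, 6.89 and 6.79 (0.61 and 0.52). SFN, the epithelial 14-3-3 protein sigma, differed by 0.68 and 0.54, and TAPBP, tapasin, which loads peptides on MHC class I, by 0.60 and 0.48 on its brightest probe, while its other probes, near the array median, differed by 0.03 each. KLLN, a nuclear protein gene, differed by 0.38 and 0.36 and was the steadiest of the 13. NSUN5P2 (0.45 and 0.40) is a pseudogene, and reads of its parent copies cannot be told apart from its own here. PPDPF, a gene named for pancreatic progenitor cells, differed by 0.70 and 0.54, and the proteasome assembly chaperone PSMG4 by 0.99 and 0.65. H2AC18 and NDUFA11, described with their lists, complete the set. In all 13 the groups did not overlap in either fit, where 11% and 13.6% of all genes lay wholly above. The choice by small p-values on these arrays favours such a gap. Control replicate 1 was the lowest control in 12 of the 13. The 23 genes together had adjusted p-values of 0.0372 to 0.0641 with that array and 0.0761 to 0.125 without it.

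The ligand and receptor genes themselves differed little. Of 7 PDGF family genes 6 were tested, 0 were called and 0 showed no overlap in either fit, and their fold changes ran over -0.304 to 0.075. PDGFRA, the receptor of PDGF-AA and the target of 3G3, had 6.66, 6.55 and 6.50 with PDGF-AA + 3G3 and 6.55, 6.54 and 6.58 with control IgG, around the array median of 6.64. The groups overlapped, the fold change was 0.02 ± 0.06, and its sign turned without normalization between arrays. At such levels its transcript was near the limit of what these arrays measure. The ligand chain gene PDGFC had the smallest p of the family, with 10.09, 10.18 and 9.92 against 10.75, 10.08 and 10.27 (-0.30 ± 0.13, and -0.11 ± 0.10 without control replicate 1). Here too the groups overlapped.

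Genes known to follow receptor tyrosine kinase signals were described next, as counts of genes whose groups did not overlap. Over all 15360 genes, by their brightest probe, 11% lay wholly above the controls and 12.2% wholly below, and without control replicate 1 13.6% and 15.3%. The 24 immediate early genes tested had 5 above and 3 below (5 and 4 without control replicate 1), and a median fold change of -0.008, against -0.003 over all genes. The 19 genes of ERK output and feedback had 5 above and 4 below, with a median of -0.019, and 5 and 4 again without control replicate 1. Below the controls was ETV5, an ERK-induced ETS factor, with 9.97, 9.77 and 9.99 against 10.60, 10.26 and 10.36 (-0.50 ± 0.12, and -0.40 ± 0.12 without control replicate 1). The feedback phosphatase DUSP5 (-0.34 and -0.19), and the Sprouty inhibitors SPRY4 (-0.20 and -0.19) and SPRY1 (-0.46 and -0.22) lay below the controls as well. As shares of the list, 26.3% lay above and 21.1% below, so the genes named here, chosen by p-value, show a single direction only. Without control replicate 1 the list median was 0.022, with 11 genes above zero and 8 below.

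Of 25 genes of PI3K-AKT-mTOR signalling and FOXO targets, 1 lay above and 5 below the controls, with a median of -0.039, and without control replicate 1 the counts were 1 and 7. PINK1, a mitochondrial kinase gene that FOXO factors induce, had 8.06, 8.10 and 8.05 with PDGF-AA + 3G3 against 8.40, 8.24 and 8.34 with control IgG (-0.26 ± 0.06, and -0.22 ± 0.06 without control replicate 1). MTOR, the growth-controlling kinase, differed by -0.35 and -0.24, and IRS2, an adaptor of insulin receptors, by -0.35 and -0.24. The list of ERBB receptors and ligands had 9 genes tested, among them ERRFI1, which is neither a receptor nor a ligand. Of these, 0 lay above and 3 below the controls in both fits (EGFR, TGFA and ERRFI1). The median was -0.018, or 0.012 without control replicate 1.

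The list with the lowest median was fatty acid synthesis. Of 14 genes listed 12 were tested, and all 12 had negative fold changes in both fits. The median was -0.33 with control replicate 1 and -0.20 without it, and 9 of 12 (75%) lay wholly below the controls in both fits, against 12.2% and 15.3% of all genes. No member was called (smallest adjusted p = 0.0629, or 0.125 without that array). The median kept its sign under every scaling tried, between -0.59 without normalization and -0.33 on the deposited values.

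SCD, the desaturase that makes monounsaturated fatty acids, led the list. It had 12.34, 12.20 and 12.22 with PDGF-AA + 3G3 and 13.47, 12.52 and 12.84 with control IgG, a fold change of -0.69 ± 0.16, or -0.43 ± 0.10 without control replicate 1. ACLY, which makes cytosolic acetyl-CoA from citrate, had 11.52, 11.61 and 11.69 against 12.65, 11.89 and 11.95 (-0.56 and -0.31). A second, dimmer ACLY probe differed by -0.45, and by only -0.17 without control replicate 1. On their brightest probes both genes were highest on control replicate 1, and both treated groups stayed below the other controls too. ACSS2, which makes acetyl-CoA from acetate, behaved otherwise. It had 10.42, 10.53 and 10.39 against 10.67, 10.68 and 10.81, and its fold change was -0.27 ± 0.07 with the doubted array and -0.30 ± 0.08 without it. ACSL1, which activates long-chain fatty acids, differed by -0.43 and -0.29. Control replicate 1 itself exceeded the mean of the other controls by a median of 0.34 over the list.

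Cholesterol synthesis, the sister branch of lipid synthesis, was split with control replicate 1: of 20 genes tested 10 were above zero and 10 below, with a median of 0.012. Without that array 5 were above and 15 below, with a median of -0.043. The even split was lost with no normalization between arrays, where 3 were above and 17 below (median -0.294), and with a common median (3 and 17, median -0.241). PMVK, a mevalonate pathway kinase, lay above the controls by 0.62 and 0.37, while IDI1 (-0.63 and -0.45), MSMO1 (-0.57 and -0.35) and SC5D (-0.60 and -0.32), enzymes of later steps, lay below them.

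The lists with the highest medians were of the mitochondrion. Respiratory complex I, which takes electrons from NADH, had 35 of 38 genes tested, and 34 of these were above zero. The median fold change was 0.47 with control replicate 1 and 0.218 without it, where 31 were above zero. In 20 of 35 (57.1%) the PDGF-AA + 3G3 arrays lay wholly above the controls, and in 21 of 35 (60%) without that array, against 11% and 13.6% of all genes. No member was called (smallest adjusted p = 0.0624, or 0.0934 without the array). The median level of the list was 10.75, 10.72 and 10.84 on the PDGF-AA + 3G3 arrays and 9.30, 10.55 and 10.17 on the control arrays, so control replicate 1 lay 0.821 below the others by the median gene.  Under the scalings tried the median was 0.198 or more with the array and 0.079 or more without it.

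NDUFA11, a small membrane subunit of the complex, had 10.75, 10.73 and 10.84 with PDGF-AA + 3G3 and 8.72, 10.27 and 10.07 with control IgG. The treated arrays were nearly alike and above all controls, with a fold change of 1.09 ± 0.26 (adjusted p = 0.0641), or 0.60 ± 0.10 without control replicate 1 (adjusted p = 0.0934). NDUFC1 had 9.81, 9.81 and 9.88 against 8.53, 9.55 and 9.16 (0.75 and 0.48), NDUFA2 differed by 0.90 and 0.46, and NDUFB7 by 1.02 and 0.48. These are accessory subunits without redox centres. NDUFS1, the largest iron-sulfur subunit, picked after its values were seen, lay wholly below the controls, at 7.16, 7.19 and 7.25 against 7.86, 7.29 and 7.32 (-0.29 and -0.10). NDUFA9 lay wholly below as well once control replicate 1 was left out. NDUFA3, with 2 motif copies in the stretch shown above and chosen for its promoter, had 11.47, 11.55 and 11.51 against 9.30, 11.21 and 10.73 (1.099 and 0.541).

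Control replicate 1 lay below the other controls by the median gene of each other mitochondrial list too, by 0.546 to 0.663. For the counts that follow, 11% of all genes lay above and 12.2% below (13.6% and 15.3% without control replicate 1). Complexes II to IV had 7 of 22 genes above and 0 below in both fits, with a median of 0.306 that dropped to 0.054 without control replicate 1, and without normalization between arrays these were 0.099 and -0.021. COX8A of cytochrome c oxidase (0.97 and 0.52), UQCR10 of complex III (0.73 and 0.34) and the oxidase subunits COX6A1 (0.82 and 0.35) and COX5B (0.88 and 0.34) lay above the controls. The ATP synthase list had 7 of 17 above and 2 below in both fits, with medians of 0.419 and 0.198, or 0.133 and 0.046 without normalization. ATP5IF1, an inhibitor of the enzyme's reverse action, had 10.66, 10.79 and 10.81 against 9.10, 10.32 and 9.94 (0.96 and 0.62). The subunits ATP5F1E (0.92 and 0.42) and ATP5MF (0.80 and 0.37) lay above as well. ATP5F1B, the catalytic beta subunit, lay the other way at 13.60, 13.70 and 13.58 against 13.92, 13.85 and 13.85 (-0.24 and -0.22). The mitochondrial ribosome had 13 of 38 above and 1 below (13 and 2 without control replicate 1), with medians of 0.354 and 0.163, or 0.06 and 0.02 without normalization, and MRPL36 of its large subunit differed by 0.84 and 0.47.

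**Figure D2:**
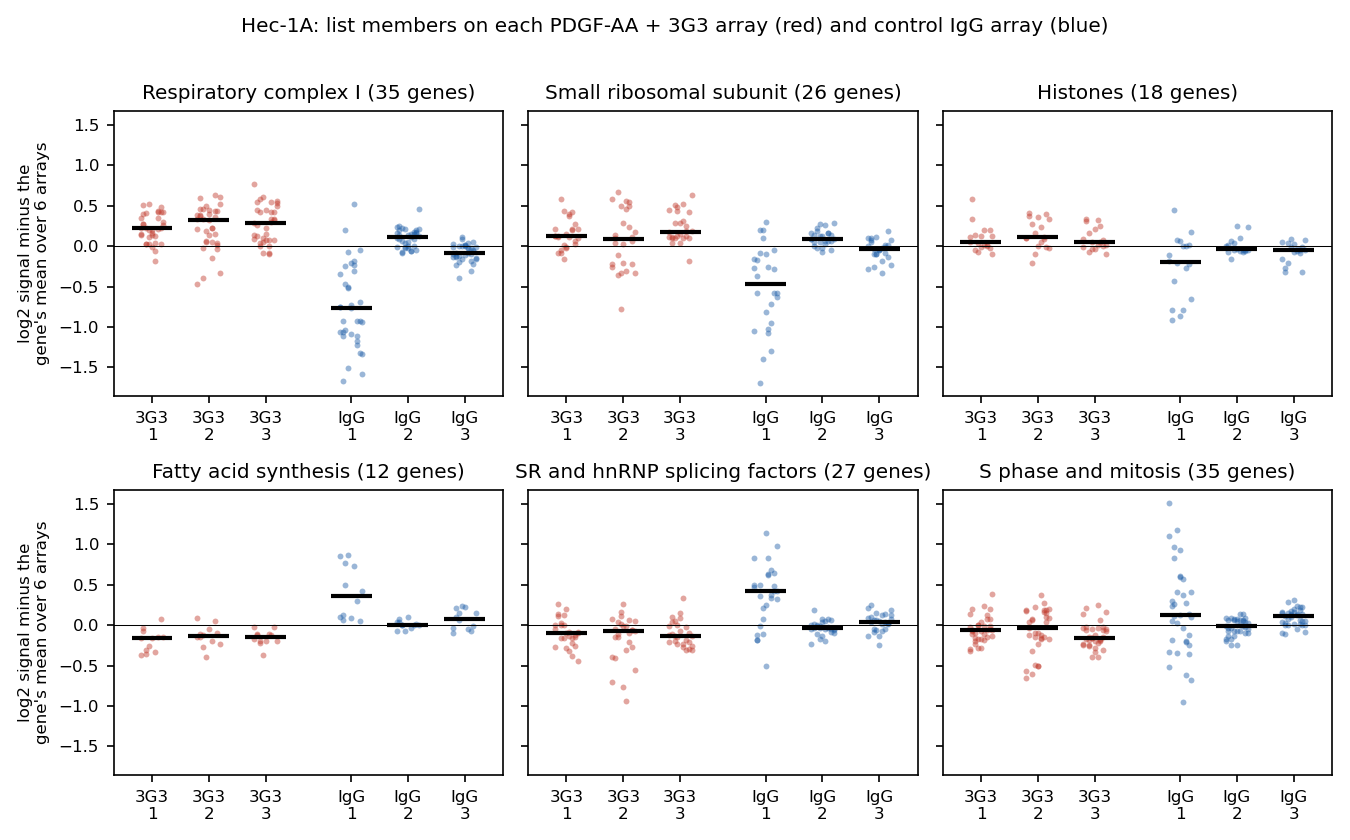
Members of 6 lists on each Hec-1A array, as the log2 signal minus the gene's mean over the 6 arrays, with PDGF-AA + 3G3 in red to the left of control IgG in blue. Each point is a gene and each black bar the list median. The complex I medians are 0.228, 0.320 and 0.286 on the PDGF-AA + 3G3 arrays and -0.762, 0.109 and -0.079 on the control arrays. The fatty acid synthesis medians are -0.165, -0.133 and -0.149 against 0.360, 0.003 and 0.080.

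Cytosolic ribosomal proteins were listed by subunit. The small subunit had 11 of 26 genes (42.3%) above and 0 below in both fits, with a median of 0.232, or 0.088 without control replicate 1. The large subunit had 6 of 42 above (14.3%, against 11% of all genes) and 0 below, and 6 and 2 without that array, with medians of 0.117 and 0.036, and the second turned to -0.025 without normalization between arrays. The difference between the subunits was not tested. RPS26 had 11.62, 11.69 and 11.54 with PDGF-AA + 3G3 against 10.21, 11.26 and 11.04 with control IgG (0.78 and 0.47). RPS28 (0.83 and 0.51), RPS21 (1.18 and 0.63), RPS9 (0.91 and 0.44) and RPL36 (1.02 and 0.49) were also above the controls. Ribosomal protein genes have many processed pseudogenes, whose transcripts the probes may also read. Control replicate 1 lay 0.519 below the other controls by the median small-subunit gene.

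RNA processing genes were divided between the core of the spliceosome and its regulators. As a measure, 11% of all genes lay above the controls and 12.2% below, or 13.6% and 15.3% without control replicate 1. Of 30 spliceosome core and Sm genes 10 lay above the controls and 0 below, with a median of 0.179, and without control replicate 1 the counts were 10 and 1 and the median 0.115. LSM6 of the ring on U6 RNA had 8.67, 8.56 and 8.71 with PDGF-AA + 3G3 against 8.03, 8.41 and 8.21 with control IgG (0.43 and 0.33). SNRPC of the U1 particle differed by 0.53 and 0.31, and LSM7 by 0.98 and 0.50. Of 27 SR and hnRNP factors, which choose splice sites, 1 lay above and 8 below (29.6%), with a median of -0.298, and without that array 2 and 8, with a median of -0.126. SRSF4 had 10.99, 11.04 and 10.95 against 11.48, 11.22 and 11.18 (-0.30 and -0.21). SRSF6 (-0.75 and -0.45), HNRNPA2B1 (-0.38 and -0.24) and HNRNPR (-0.47 and -0.27) lay the same way. The core median was 0.01 without normalization between arrays, while that of the regulators stayed negative under every scaling.

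Histone genes were above the controls in 10 of 18 (55.6%) and below in 1, in both fits, against 11% and 13.6% of all genes above. Their median was 0.19 with control replicate 1 and 0.124 without it. H2AC18, a histone H2A gene, had 8.86, 8.69 and 8.59 with PDGF-AA + 3G3 and 7.36, 8.21 and 7.96 with control IgG. Its groups did not overlap, and its fold change was 0.87 ± 0.16, or 0.63 ± 0.12 without that array (adjusted p = 0.0618 and 0.116). H2AC20 beside it had 8.32, 8.35 and 8.33 against 7.20, 7.99 and 7.71 (0.70 and 0.48). H2A genes are near-identical copies, so a probe may read several of them. H2AX, the variant phosphorylated at DNA breaks, moved little with the doubted array, at 0.40 ± 0.12 and 0.39 ± 0.13. H4C3 differed by 0.51 and 0.24. The list median was 0.03 and 0.01 without normalization between arrays.

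The proliferation genes did not share that direction. Of 35 S phase and mitosis genes 25 were below zero, 3 lay above the controls and 12 (34.3%) below, with a median of -0.169. Without control replicate 1 the counts were 3 and 14, and the median was -0.113. Shares of all genes were 11% above and 12.2% below, or 13.6% and 15.3% without that array. CENPE, a kinetochore motor, had 8.44, 8.21 and 8.51 with PDGF-AA + 3G3 against 9.30, 8.79 and 9.03 with control IgG (-0.65 ± 0.16 and -0.52 ± 0.16). The mitotic kinase gene AURKA had 10.11, 10.12 and 10.09 against 10.54, 10.24 and 10.45 (-0.30 and -0.24), and the helicase genes MCM6 (-0.49 and -0.33) and MCM3 (-0.49 and -0.31) also lay below. The 3 that lay above in both fits, picked for that, were UBE2C (0.57 and 0.24), AURKB (0.50 and 0.28) and E2F1 (0.25 and 0.22). Of 17 regulators of G1, 1 lay above and 4 below in both fits. CDK6, a kinase that starts the cycle, differed by -0.37 and -0.29, and RBL2, a pocket protein that restrains it, by -0.44 and -0.31.

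Interferon response genes lay in both directions, 6 above and 5 below of 31 (7 and 5 without control replicate 1), with a median of -0.017. ISG15, a ubiquitin-like protein, had 11.11, 11.33 and 11.17 with PDGF-AA + 3G3 against 9.19, 10.73 and 10.67 with control IgG (1.00 and 0.50), and the membrane proteins IFITM2 (0.82 and 0.50) and IFITM3 (0.79 and 0.48) lay above as well. The RNA sensor IFIH1 lay below, at 8.15, 8.37 and 8.36 against 8.92, 8.56 and 8.75 (-0.45 and -0.36). Antigen presentation genes had 5 of 20 above and 0 below, or 6 and 0 without control replicate 1, with medians of 0.148 and 0.064 that turned to -0.04 and -0.05 without normalization between arrays. PSMB10, an immunoproteasome subunit, differed by 1.01 and 0.55. Beside the counts of both lists, 11% of all genes lay above and 12.2% below, or 13.6% and 15.3% without that array.

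Lists of stress and growth control follow, where 11% of all genes lay above and 12.2% below, or 13.6% and 15.3% without control replicate 1. Heat shock chaperones had 0 of 18 above and 3 below in both fits, with a median of -0.117 that shrank to -0.024 without control replicate 1, and HSPA8, the constitutive HSP70, had 12.68, 12.32 and 12.62 with PDGF-AA + 3G3 against 13.68, 12.98 and 13.19 with control IgG (-0.74 and -0.54). The endoplasmic reticulum stress genes had 3 above and 4 below of 18 (4 and 5 without control replicate 1), and split between the chaperone HSP90B1 (-0.46 and -0.29) and the secreted factor MANF (0.73 and 0.40). The p53 targets had 3 above and 1 below of 18 (3 and 2 without control replicate 1), among them the pore-forming BAX at 8.13, 7.92 and 8.01 against 7.31, 7.69 and 7.66 (0.47 and 0.35). The BCL2 family had 4 above and 1 below of 17 in both fits, and its BH3-only member BIK differed by 0.52 and 0.37. BAX and BBC3 are on both the p53 and the BCL2 list and count as above in each, so these lists are not separate observations. In the TGF-beta and SMAD target list 1 of 20 lay above and 4 below in both fits. Of its genes 7 were above zero and 13 below, with a median of -0.066 (6 and 14, median -0.073, without control replicate 1). ID1, an inhibitor of differentiation that BMP signals induce, differed by 0.69 and 0.40, the other way from most of the list.

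Of 25 smooth muscle and actin-binding genes 4 lay above and 5 below in both fits, and TAGLN, an actin-binding protein, had 7.66, 7.74 and 7.59 with PDGF-AA + 3G3 against 7.10, 7.32 and 7.26 with control IgG (0.44 and 0.38). The hypoxia response list had 3 of 18 above and 0 below (3 and 1 without control replicate 1), and ADM, the vasodilator peptide adrenomedullin, differed by 0.53 and 0.40. ADM is also 1 of the 3 angiogenic factors of 16 that lay above, with 1 below, in both fits. Of 24 epithelial junction genes 5 lay above and 2 below in both fits. CLDN4, a tight junction claudin, differed by 0.31 and 0.24, and CDH1, E-cadherin, had 10.37, 10.18 and 10.37 against 11.55, 10.51 and 10.82 (-0.66 and -0.36). The 10 epithelial line markers had 4 above and 1 below in both fits, with medians of 0.227 and 0.133 that turned to -0.025 and -0.019 without normalization between arrays. Mesenchymal genes had 0 of 10 in either direction, and the fibroblast markers 0 of 5, in both fits. The endometrial and hormone response genes had 2 of 16 above and 1 below in both fits. Counts in this paragraph stand beside 11% of all genes above and 12.2% below (13.6% and 15.3% without control replicate 1). SPP1, osteopontin, had 12.73, 12.25 and 12.71 against 13.59, 13.18 and 13.28 (-0.79 ± 0.17, and -0.67 ± 0.18 without control replicate 1).

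The other lists are given by counts alone, to be read beside the shares of all genes. Those were 11% wholly above the controls and 12.2% wholly below, or 13.6% and 15.3% without control replicate 1. Counts such as 2 and 2 of 18 lie close to these shares. Above and below the controls were 5 and 1 of 26 proteasome subunits, 1 and 3 of 21 ATF4 targets, 2 and 2 of 18 glycolysis enzymes, 3 and 1 of 20 NF-kB targets, 3 and 5 of 26 NRF2 and glutathione genes, and 2 and 0 of 7 leukocyte and endothelial markers. In the same order, the counts without control replicate 1 were 5 and 1, 1 and 6, 2 and 3, 4 and 2, 3 and 5, and 2 and 0. Of the 39 lists 14 had a median at least 0.1 from zero with control replicate 1. The medians of the 25 others lay between -0.066 and 0.071, and 0 members of any list were called in either fit.

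**Figure D3:**
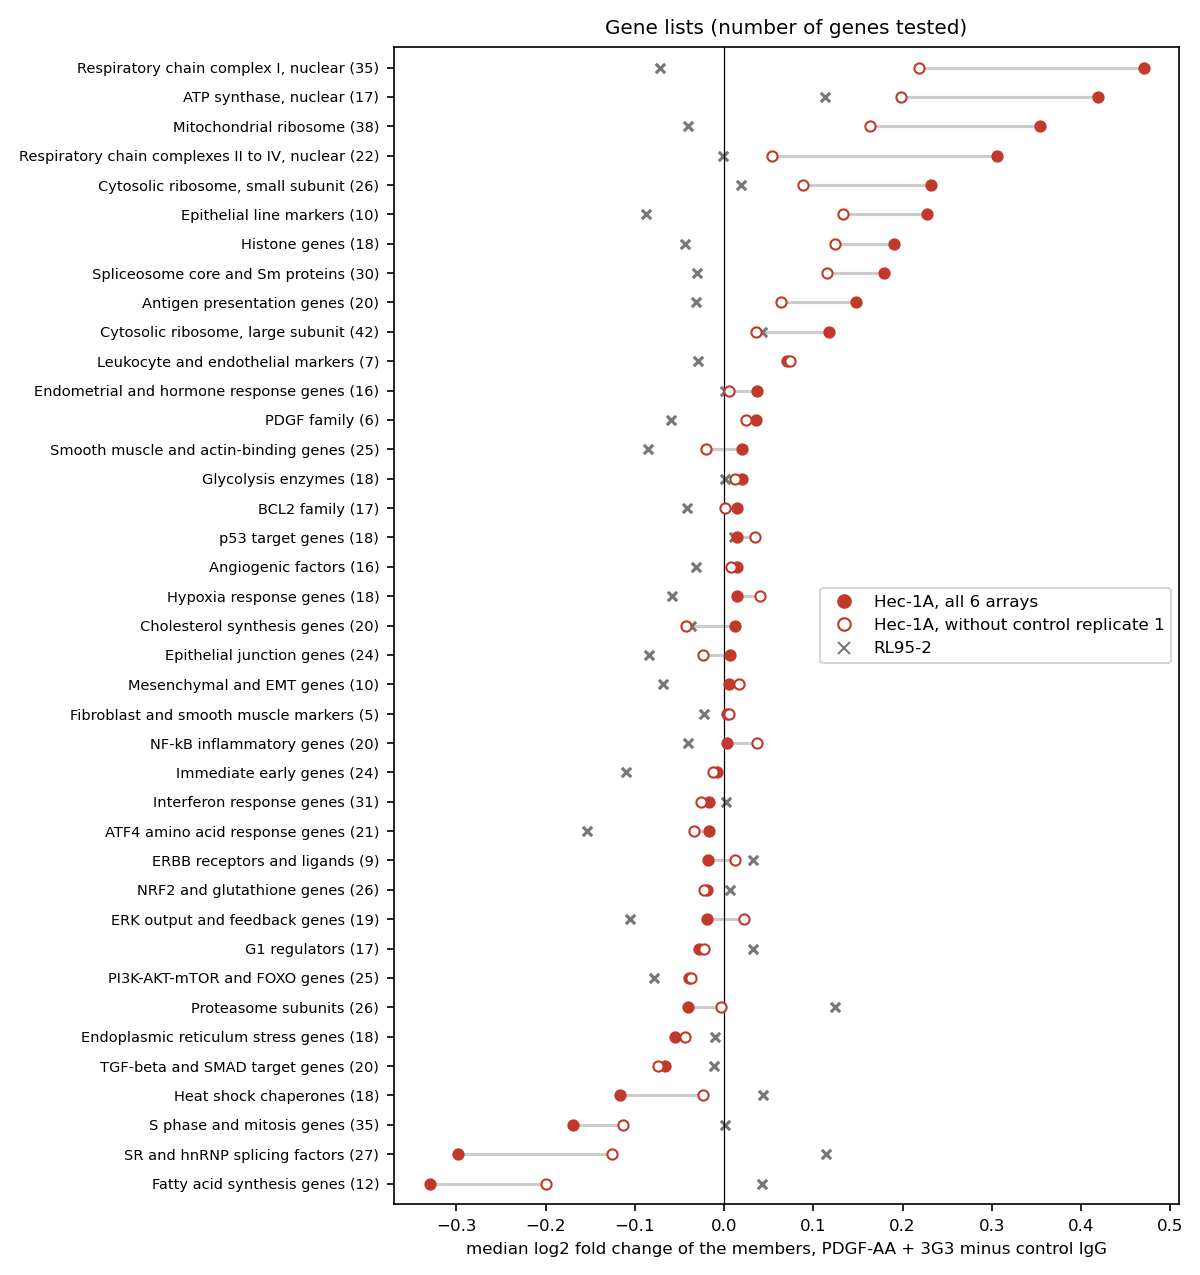
Median log2 fold change, PDGF-AA + 3G3 minus control IgG, of the tested members of 39 gene lists, with the number tested in brackets. Filled circles are Hec-1A with all 6 arrays, open circles Hec-1A without control replicate 1, and crosses RL95-2. Complex I lies at 0.47 with all arrays and 0.218 without that array, against -0.072 in RL95-2, and fatty acid synthesis at -0.33 and -0.20 against 0.043.

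Leaving out control replicate 1 shrank most large differences without turning them, as the plot of both fits shows. The spread of log2 fold changes over all probes was 0.212 (SD) with the array and 0.132 without it. The choice of array also worked the other way: with control replicate 2 left out in place of replicate 1, 3889 probes were called (1965 higher and 1924 lower), and the remaining controls then included the array that stands apart. Leaving out any other of the 6 arrays called 0. Without control replicate 1 and with control replicate 2 left out as well, 58 probes were called against control replicate 3 alone, on the assumption that this lone array varies like the other groups.

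**Figure D4:**
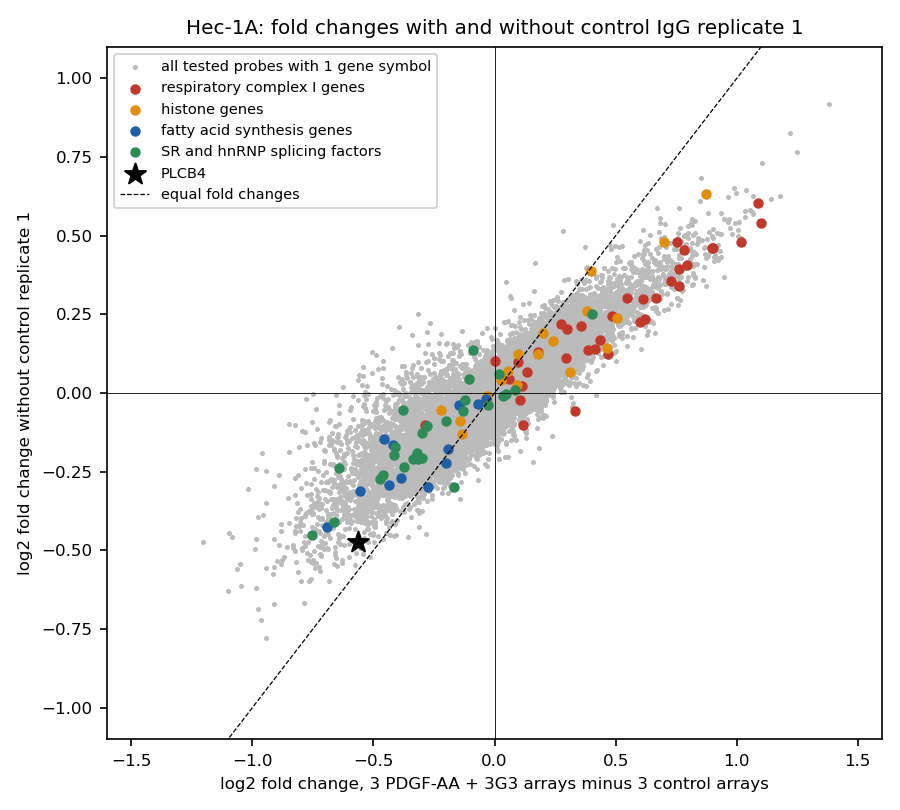
Log2 fold change with all 6 Hec-1A arrays (horizontal) against that without control IgG replicate 1 (vertical), for the tested probes with 1 gene symbol (grey) and for 4 gene lists and PLCB4 (coloured). Points between the dashed line of equal fold changes and the horizontal axis have a smaller fold change without the array. PLCB4, at -0.57 and -0.47, lies near the dashed line. Most complex I genes lie farther off it, though some, such as NDUFB4, lie nearer.

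The same treatments in RL95-2, given side by side, called 0 probes (smallest adjusted p = 0.289), with 3017 at an unadjusted p under 0.05, 1161 higher (3.62%) and 1856 lower (5.79%). Groups did not overlap at 2065 probes above (6.44%) and 2767 below (8.63%). PLCB4 had 6.45, 6.50 and 6.46 with PDGF-AA + 3G3 and 6.42, 6.37 and 6.61 with control IgG there, below the array median of 6.64, so its probe measured little in that line. Its groups overlapped, at 0.01 ± 0.07. The median of complex I was -0.072 in RL95-2, that of fatty acid synthesis 0.043 and that of the SR and hnRNP factors 0.114. The difference between the lines, Hec-1A effect minus RL95-2 effect, was tested as an interaction. It called 0 of 32070 probes with control replicate 1 (smallest adjusted p = 0.08) and 0 without it (0.0872). At an unadjusted p under 0.05 it had 3718 higher (11.6%) and 3224 lower (10.1%) probes, and without that array 2774 (8.65%) and 2489 (7.76%). No gene can therefore be called particular to Hec-1A at this threshold.

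The smallest p-values of that interaction named C5orf22, whose Hec-1A fold change was -0.34 and RL95-2 fold change 0.29, the RNA helicase DDX39B (-0.39 in Hec-1A and 0.36 in RL95-2) and the amino acid transporter SLC36A1 (likewise -0.33 and 0.28). In the other direction they named the cell-cycle kinase PKMYT1 (0.36 in Hec-1A and -0.29 in RL95-2), PRRC2A (likewise 0.42 and -0.37) and the Toll-like receptor adaptor TICAM1 (likewise 0.31 and -0.48). All 6 had an adjusted p of 0.08, and their Hec-1A fold changes and p-values are those with control replicate 1. Without control replicate 1, PLCB4 and SNORD104 were among the leading genes, at differences of -0.48 and 0.84 (adjusted p = 0.0872 each). The PDGF-AA arrays of Hec-1A share these controls, and on them PLCB4 differed from control IgG by -0.50, MT2A by 1.19, NDUFA11 by 0.92 and AXL by -0.23. These fold changes were taken with control replicate 1 included.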

How the data were processed

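Total RNA was isolated with a mirVana kit and labelled as biotin cRNA, and signals were exported from BeadStudio as 1 value per probe and array, per the labels' protocols. No genome build was used for the expression values, and the labels name none. The promoter stretches are from GRCh38.p14, and genomic spans are from RefSeq. The deposited log2 values share the same quantiles on all 18 arrays. They differ by at most 0.0438 from log2 of the deposited linear intensity table after quantile normalization, so the scale and normalization were read from the values. The intensity values, between 66.7 and 22230, were deposited without normalization between arrays or background subtraction.

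Probes entered the test where 3 or more arrays had them above the array median. A linear model with 6 group means over 18 arrays (17 without control IgG replicate 1) was estimated by limma 3.58.1 (R 4.3.3), using moderated two-sided tests and Benjamini-Hochberg adjustment over 32070 probes at a threshold of 0.05. Residual degrees of freedom were 12 (11 without that array). The fit was run on simulated data whose noise had the same spread on every array. Those data held no array that stands apart, so the run cannot speak for control replicate 1. Figures were drawn with Python 3.11.15 and matplotlib 3.10.9.

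Gene names came from the platform annotation: 30113 probes have 1 symbol, 8 several and 17110 none, and of the named probes 30074 were found in RefSeq's gene table. A gene is represented by its brightest probe over the 6 arrays, which left 15360 genes. Named genes were the 8 smallest p-values in each direction with and without control replicate 1, the 3 smallest in each direction for the difference between the lines, the PDGF family, and up to 4 members of each list, in order of the smaller of their p-values with and without that array. The groups, lists and rules were chosen with earlier results of these data known. Replicate numbers did not pair the arrays: deviations of same-numbered arrays from their group means correlated at -0.028, 0.15 and -0.399. The number of arrays limits the precision.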

Additional observations from a re-analysis of the deposited data

How the results depend on the processing

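With control replicate 1, the count of 1 called probe went to 0 without normalization between arrays, with scaling to a common median, with normexp background correction (offset 16 or 50), with Hec-1A arrays alone, with the 6 arrays alone and with the replicate number as a block (PLCB4 adjusted p = 0.152). It was 928 with a filter at the 75th percentile (554 higher, 374 lower), 257 with trend and robust moderation (173 and 84) and 3755 with array weights (1835 and 1920). Leaving out 1 array gave 0 to 3889. Without control replicate 1, where 0 were called, the count was 1 on the quantile-normalized intensity table and 1 with a common median, 9 with trend and robust moderation, 21 with array weights and 0 with the block, and leaving out a further array gave 0 to 58. For the difference between the lines, array weights called 4291, and 1377 without control replicate 1. Leaving out 1 array gave 0 to 3278, with 1088 without RL95-2 PDGF-AA + 3G3 replicate 1, and, without control replicate 1, 0 to 1794, the highest without that same RL95-2 array. The causes of these shifts in counts were not tested.

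With no normalization, all probes had a median fold change of -0.0905 (-0.0707 without control replicate 1), and -0.125 for the difference between the lines. The fold change of PDGFRA was then -0.03667 (-0.02534), and that of TICAM1 -0.02675. For PDGFRA, leaving out 1 array gave -0.02983 to 0.05217, or, without control replicate 1, -0.0325 to 0.0495 (-0.008 without control replicate 2), and the block gave -0.0003333. The remaining genes among the 101 followed through these settings kept their sign in each setting run.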

Other observations

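Other metallothionein genes, chosen after their values were seen, ranked the control arrays in the order that MT2A did. MT1X had 9.27, 9.40 and 9.24 with PDGF-AA + 3G3 and 7.57, 8.91 and 8.59 with control IgG, a log2 fold change of 0.95, or 0.55 without control replicate 1. MT1F had 9.50, 9.40 and 9.63 against 7.94, 9.18 and 8.88 (0.85 and 0.48), and MT1G had 8.26, 8.06 and 8.15 against 7.18, 7.96 and 7.45 (0.63 and 0.46). In these 3 genes no treated array lay among the controls, and control replicate 1 was the lowest. The dimmer genes MT1H, MT1E, MT1L and MT4 had overlapping groups. Metallothionein genes are close copies of each other, so a probe may read several of them.

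Fold changes followed the genomic span of the gene, from start to end in RefSeq. In the first of 4 equal groups of genes, that with the shortest spans (median 3.84 kb), the median log2 fold change was 0.041. In the following groups (medians 15.7, 40.2 and 125 kb) it was 0.015, -0.027 and -0.061. Without control replicate 1 the medians were 0.031, 0.005, -0.022 and -0.038 in the same order. Control replicate 1 minus the other controls ran the opposite way, at -0.059, -0.033, 0.018 and 0.067, and RL95-2 gave -0.027, -0.029, -0.01 and -0.003. The lists above zero here, such as ribosomal proteins, were not matched for span, and the part of span in their values was not tested.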
